A study of Mus musculus with 4 samples.

Results

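The CpGs described here were well covered in 3 libraries of mouse embryonic fibroblasts (MEFs) and almost unread in a 4th. They are the 20451 autosomal CpGs with at least 20 reads in each of the control, 0-division and 1-division libraries and under 5 reads, or no entry, in the >3-division library. They were chosen among autosomal CpGs by read depth alone, so their depths are a description. Their levels in the first 3 libraries, density, spacing and autosome did not enter the choice. The level of their few reads in the >3-division library is not independent of it. They made up 2.19% of the 935673 autosomal CpGs with at least 20 reads in the first 3 libraries, called eligible CpGs, and were part of the 2057290 CpGs listed in any library. Of the other eligible CpGs, 809201 also had at least 20 reads in the >3-division library and are called kept CpGs, and 106021 had 5 to 19 reads there.

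The study followed DNA methylation in the initial phase of reprogramming by reduced representation bisulfite sequencing (RRBS), with 1 library per group. All cells were secondary, inducible MEFs of a 129/SvJ x C57/B6 hybrid, in which doxycycline switches on reprogramming factors. The control MEFs were uninduced, and the 0-division, 1-division and >3-division cells had 96 hours of doxycycline and are labelled by their average number of divisions. The cohort label reads >3 while the sample's description speaks of 3 or more divisions. The labels name a doxycycline medium with 15% serum and a starvation medium with 0.5% serum without assigning them to cohorts, so medium and division number cannot be told apart. The sources used here give neither how the cohorts were separated, nor the age and sex of the embryos, nor which factors were induced, nor how many animals each culture came from. The libraries summed to between 84606824 reads over CpGs in control and 94775128 in the >3-division library, so the last library was not shallow as a whole. Its median depth per listed CpG was nevertheless 24 reads, against 35 in control, and the methylated share of reads was 26.0% there and 44.4% in control.

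Methylation of the cytosine in a CpG is copied onto the new strand after replication by the maintenance methyltransferase DNMT1. In fibroblasts most CpGs in CpG-poor sequence are methylated, while CpG islands, the CpG-dense stretches at many promoters, are mostly free of it. RRBS cuts DNA with MspI, whose site contains a CpG and which cuts whether or not that CpG is methylated, and reads the short fragments after bisulfite has converted unmethylated cytosines. A CpG is seen only if its fragment yields reads, so a level can be followed across libraries only where depth persists. Neither the mm9 genome sequence nor its gene annotation was used here, so no sequence is printed and no gene, exon or promoter is assigned to a position.

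Dropping out was almost confined, among these 4 libraries, to the >3-division library. When the rule was turned round and asked for CpGs with at least 20 reads in the 3 other libraries and under 5 in the one left, 0 of 816486 CpGs were found for control, 97 of 838875 for the 0-division library and 2 of 819087 for the 1-division library. The count of 0 allows a share of up to 0.00047% (95% Wilson interval, counting error only). CpGs missing from the >3-division library averaged 87.2% methylation in control with a median of 91.2%, whereas the 97 missing from the 0-division library averaged 13.5% with a median of 0%. Among the 20451, 1500 had no read at all in the >3-division library, 3081 had 1 read, 4299 had 2, 5446 had 3 and 6125 had 4. Just outside the limit, 6820 eligible CpGs had 5 reads. Those 6820 averaged 85.2% methylation in control, and the 6125 with 4 reads just inside averaged 85.3%, so the limit does not mark a break. At the other limit, 1452 drop-out CpGs had a lowest depth of exactly 20 reads over the first 3 libraries and averaged 85.3% in control, and 1626 CpGs at 19 reads that missed the rule averaged 85.5%.

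The drop-out CpGs were highly methylated in the libraries that did read them. Control gave a mean level of 87.2% ± 13.7, the 0-division library 86.8% ± 13.7 and the 1-division library 88.1% ± 13.0 (SD over 20451 CpGs, which are not replicates). Kept CpGs averaged 39.1% ± 40.8, 39.3% ± 40.3 and 39.1% ± 40.8 in the same libraries. Kept CpGs fell into an unmethylated and a methylated mode, and drop-outs lay almost wholly in the methylated one. In control, 16587 drop-outs (81.1%) were at or over 80%, 3701 (18.1%) lay between 20% and 80%, and 163 (0.797%) were under 20%. The same shares of kept CpGs were 31.4%, 17.1% and 51.6%. In all of the first 3 libraries together, 70.4% of drop-outs and 26.8% of kept CpGs were at or over 80%, while 0.611% of drop-outs and 50.4% of kept CpGs were under 20%. The median control level was 91.2% for drop-outs (quartiles 82.8% and 95.9%) and 13.4% for kept CpGs (quartiles 0% and 85.3%). A high level was not particular to drop-outs. The 106021 eligible CpGs between drop-outs and kept CpGs in >3-division depth averaged 79.9% in control. Of these, 68.6% were at or over 80% and 4.94% under 20%.

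**Figure D1:**
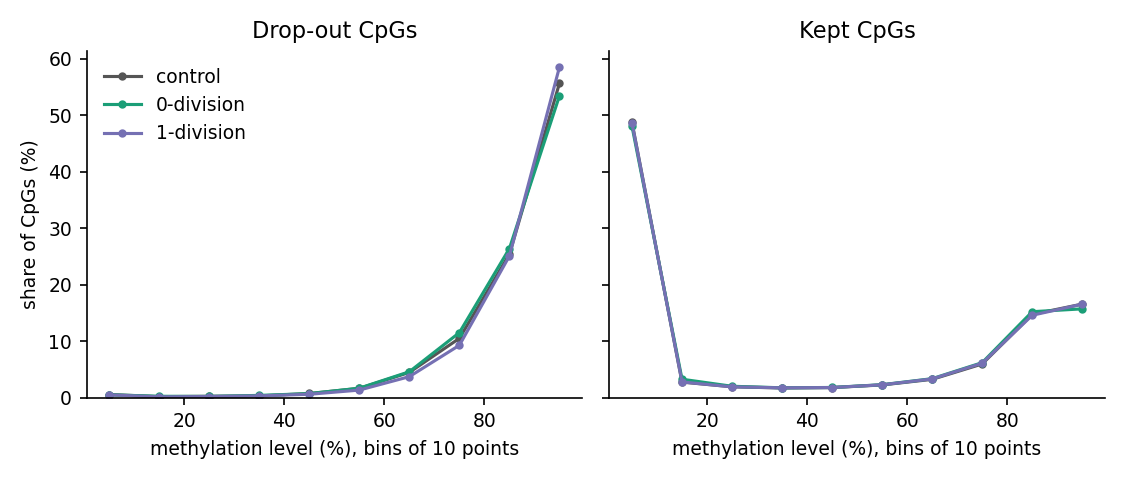
Share of CpGs (%) in each 10-point bin of methylation level, for drop-out CpGs on the left and kept CpGs on the right, in the control, 0-division and 1-division libraries (1 line each). Drop-outs pile up in the highest bins, with 81.1% at or over 80% in control, whereas kept CpGs also have a mode near 0%.

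The share of eligible CpGs that dropped out was higher in each 10-point bin of control level than in the bin before it. It was 0.0300% of 399347 CpGs below 10%, 0.935% between 40% and 50%, 3.38% between 70% and 80%, and 5.97% of 190741 CpGs at or over 90%. Within CpG-dense and intermediate sequence the order was broken once, with 5.11% and 4.43% at 80% to 90% below the 6.11% and 5.01% at 70% to 80%. In CpG-poor sequence it was broken at a low level, with 0.495% at 30% to 40% below the 0.565% at 20% to 30%. Intervals of such shares cover counting error only and are too narrow, because CpGs on a fragment share reads. Depth in the first 3 libraries, which the rule itself used, moved with dropping out as well. With a lowest depth of 20 to 29 reads 7.71% dropped out, with 40 to 59 reads 1.28%, and with 100 or more reads 0.0699%. The order by level held at each depth. Among CpGs of 20 to 29 reads, 15.1% of those at or over 80% dropped out, 8.03% of those between 20% and 80%, and 0.216% of those under 20%. Among CpGs of 60 to 99 reads the shares were 1.18%, 0.191% and 0.00077%, the last being 1 CpG of 130137.

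**Figure D2:**
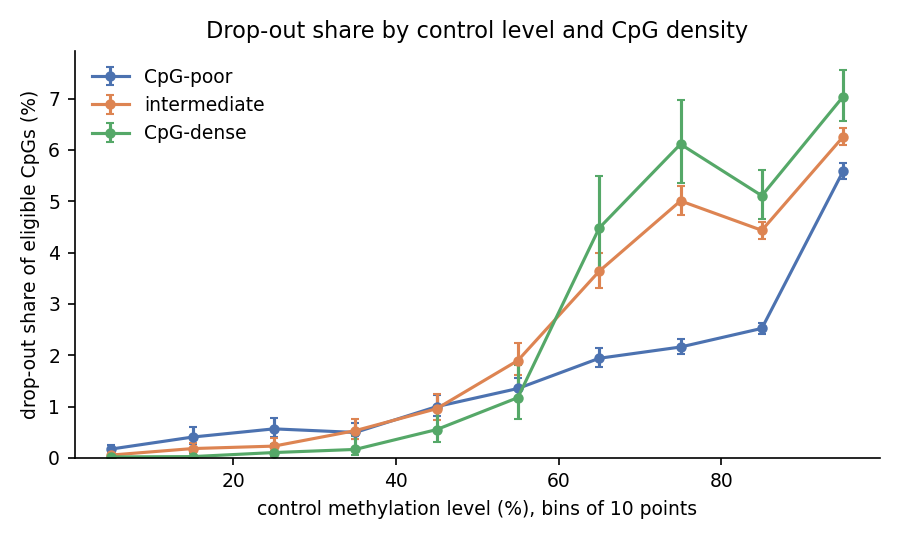
Share of eligible CpGs that dropped out (%, vertical axis) by control methylation level in bins of 10 points (horizontal axis), for CpG-poor, intermediate and CpG-dense sequence; bars are 95% Wilson intervals of counting error. The shares are 7.04% of CpG-dense, 6.25% of intermediate and 5.59% of CpG-poor sites in the highest bin, and CpG-dense sequence is on top from 60% upward but lowest below 60%.

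CpG density was counted as all listed CpGs up to 100 bp away, the CpG itself included. It was lower at drop-outs than at kept CpGs over all levels. Among highly methylated CpGs the order by density depended on depth. Drop-outs had a median density of 5 and kept CpGs of 9. By class, 43.7% of drop-outs were CpG-poor (density at most 4), 48.9% intermediate and 7.40% CpG-dense (at least 12), against 28.9%, 28.8% and 42.3% of kept CpGs. The 106021 eligible CpGs between drop-outs and kept CpGs in >3-division depth were close to drop-outs, with a median density of 5. Of these, 47.9% were CpG-poor, 43.6% intermediate and 8.53% CpG-dense. Among CpGs at or over 80% in control the medians were 5 in drop-outs, 5 in the CpGs of depth in between and 4 in kept CpGs. Within that level, 6.18% of 18238 CpG-dense sites dropped out, 5.51% of 147543 intermediate sites and 4.13% of 177356 CpG-poor sites. Under 20% the order was turned round, with 0.0178% of CpG-dense, 0.0679% of intermediate and 0.241% of CpG-poor sites. Among highly methylated CpGs, CpG-dense sites had the highest share only at a lowest depth of 20 to 29 reads. There 26.6% of CpG-dense, 17.8% of intermediate and 11.6% of CpG-poor sites dropped out. That depth held 807 of the 1127 CpG-dense drop-outs of this level. In the same order the shares were 7.92%, 9.82% and 6.55% at 30 to 39 reads. They were 2.77%, 4.42% and 2.60% at 40 to 59 reads, and 0.959%, 1.02% and 1.39% at 60 to 99 reads.

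Spacing behaved likewise. The nearest listed CpG was at a median of 13 bp from a drop-out (quartiles 5 and 25 bp) and 8 bp from a kept CpG (4 and 20 bp), but among CpGs at or over 80% in control the medians were 12 bp for drop-outs and 17 bp for kept CpGs. For eligible CpGs between drop-outs and kept CpGs in >3-division depth, the median was 14 bp over all levels and 14 bp at or over 80%. At that level 6.34% of CpGs with a neighbour 2 to 5 bp away dropped out, 3145 of 62858 with the nearest at 6 to 10 bp, 4.91% at 11 to 20 bp, 5.76% at 21 to 40 bp, 4.58% at 41 to 60 bp and 4.05% at 61 to 100 bp, so the share did not fall steadily with distance. A distance of 149 to 151 bp stood apart: 18 of 25454 such highly methylated CpGs dropped out, or 0.0707%, against 3.26% at 101 to 148 bp and 4.34% at 152 to 220 bp. Exactly 150 bp was the commonest gap between listed CpGs from 101 to 220 bp, found 16026 times, followed by 105 bp with 2512. Whether these CpGs lie in copies of a repeated sequence was not tested. These CpGs weighed on the isolated sites: of highly methylated CpGs with no other listed CpG within 100 bp, 1.75% of 49526 dropped out, and without those at 149 to 151 bp 3.53% of 24072. Of the 253865 highly methylated kept CpGs, 25059 had their nearest CpG at 149 to 151 bp. The median distances and the shares of CpG-poor sites at that level include this class and were not computed without it.

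Isolated groups of 2 to 4 listed CpGs, with no other listed CpG within 220 bp, give a rough view of fragment length, since fragments of 40 to 220 bp were selected and both ends carry a CpG. This view was chosen after the spacing values were seen. Among highly methylated CpGs the drop-out share was 10.9% for groups spanning 40 to 49 bp (65 of 596), 7.10% at 50 to 59 bp, 8.89% at 60 to 69 bp and 6.02% at 70 to 79 bp. It was 4.96% at 80 to 99 bp, 4.36% at 100 to 119 bp, 5.46% at 120 to 139 bp and 3.51% at 140 to 149 bp, so the order by span was broken at 60 to 69 and at 120 to 139 bp. At 150 to 153 bp, where the commonest gap lies, it was 0.167%, at 154 to 159 bp 2.98%, at 180 to 199 bp 4.29% and at 200 to 222 bp 6.16%, with 208 of 5780 at 160 to 179 bp. Short groups were also shallower before: at 50 to 59 bp control had a median depth of 44 reads, the 0-division library 26, the 1-division library 36 and the >3-division library 21, against 66, 64, 61 and 40 reads at 100 to 119 bp. The part of depth in these shares was not tested.

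**Figure D3:**
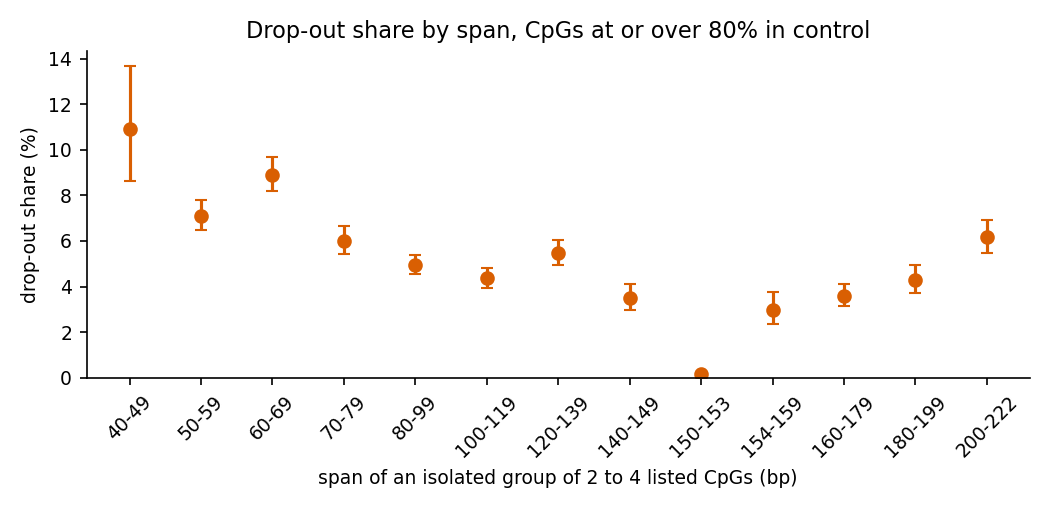
Share of CpGs at or over 80% in control that dropped out (%, vertical axis) by the span of their isolated group of 2 to 4 listed CpGs (bp, horizontal axis); bars are 95% Wilson intervals of counting error. The share is highest for the shortest groups (10.9%), lowest at 150 to 153 bp (0.167%), and 6.16% for the longest.

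The few reads that drop-outs still had in the >3-division library were less methylated than the reads at the same CpGs in control. Summed over the 18951 drop-outs with at least 1 read, 36243 of 52517 reads were methylated in the >3-division library, a pooled level of 69.0% (Wilson interval 68.6% to 69.4%). Pooled over all drop-outs, control stood at 88.1%, the 0-division library at 87.8% and the 1-division library at 89.1%. The difference of the >3-division library from control was thus -19.0 points. The reads that give this level are those the rule limited, so the level is not independent of the choice. To compare CpGs of like level without reusing control, CpGs were binned by their 1-division level. At or over 80% there, the pooled level in the >3-division library was 72.7% against 91.3% in control for drop-outs, a difference of -18.6 points. It was -11.2 points for CpGs with 5 to 19 reads and -4.04 points for kept CpGs (85.6% in the >3-division library, 89.7% in control). These classes were themselves set by depth in the >3-division library, so their order cannot be read apart from that choice. No CpG among the drop-outs has enough reads in the >3-division library for a test of its own, and with 1 library per group these differences have no replicate check.

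Counted per control read, methylated reads were fewer than unmethylated ones in the >3-division library. At drop-outs the >3-division library held 0.0529 methylated reads for each methylated control read and 0.175 unmethylated reads for each unmethylated control read, a quotient of 3.31. At CpGs with 5 to 19 reads the ratios were 0.197 and 0.441, and at kept CpGs 0.756 and 1.57. The corresponding quotients were 2.23 and 2.08. At CpGs at or over 80% in the 1-division library the ratios were 0.0514 and 0.202 for drop-outs, 0.193 and 0.483 for CpGs with 5 to 19 reads and 0.733 and 1.07 for kept CpGs, with quotients of 3.94, 2.50 and 1.46. The sum of both kinds of read is the depth that the rule used. Neither these quotients nor the pooled level of the remaining reads is therefore independent of the choice. Whether the limit of 4 reads by itself shifts the methylated share was not tested. At drop-outs with 1, 2, 3 and 4 reads in the >3-division library, the pooled level there was 71.5%, 71.7%, 69.0% and 67.8%. Their mean control levels were 89.1%, 88.4%, 86.3% and 85.3%. In the 1-division library drop-outs held 1.28 methylated and 1.16 unmethylated reads per control read, and in the 0-division library 1.06 and 1.08. Their depth at 1 division was thus no lower than in control: control had a median of 33 reads, the 0-division library 34 and the 1-division library 41, while kept CpGs had a median of 70 reads in each.

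**Figure D4:**
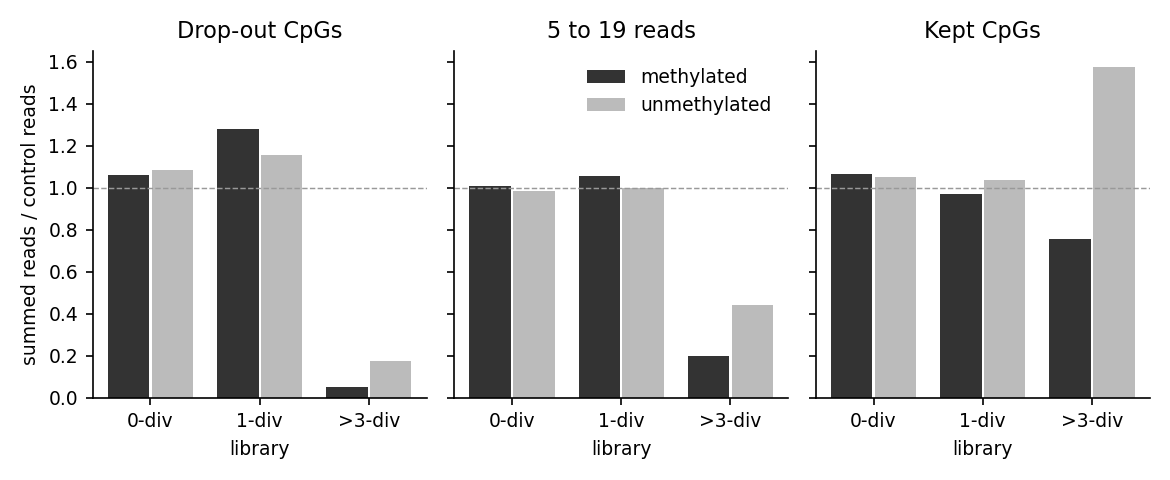
Summed methylated (dark) and unmethylated (light) reads in the 0-division, 1-division and >3-division libraries, each divided by the control reads of the same state (vertical axis, no unit), for drop-outs, CpGs with 5 to 19 reads and kept CpGs; the dashed line is 1. In the >3-division library the dark bars are the lower ones in all panels, 0.0529 against 0.175 at drop-outs and 0.756 against 1.57 at kept CpGs.

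Drop-outs came in short runs. Where the nearest eligible CpG lay within 10 bp of a drop-out it was a drop-out itself in 7482 of 8244 cases (90.8%). At 21 to 40 bp it was one in 80.9%, at 41 to 60 bp in 28.8% and over 220 bp in 5.49%. The step lies between 40 and 60 bp, and beyond it the neighbour was a kept CpG in 34.6% of cases at 41 to 60 bp. Of all eligible CpGs with the nearest eligible CpG within 10 bp, 1.66% dropped out, and at 21 to 40 bp 3.81%. At 41 to 60 bp it was 2.87% and over 220 bp 3.77%, not far from the 5.49% of neighbours there. Close neighbours share reads, so they are not separate observations. Joining eligible CpGs across gaps of up to 100 bp gave 268065 stretches. Of these, 10629 (3.97%) held a drop-out, and 5475 of the 10629 (51.5%) held nothing else, 2589 of them with 2 or more CpGs. Runs of drop-outs with no other eligible CpG between them numbered 11350, of which 5477 had 1 CpG and 281 had 5 or more. Runs of 2 or more held 73.2% of all drop-outs and spanned a median of 23 bp.

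In 3242 stretches drop-outs and kept CpGs lay together, and there their levels were close. Averaged per stretch, drop-outs were at 84.4% and kept CpGs at 86.2% in control, a mean difference of -1.82 points, with drop-outs lower in 1971 stretches and higher in 1268. The difference was -1.64 points by 0-division levels and -0.878 points by 1-division levels. This is the opposite sign of the 48.1 points between drop-outs and kept CpGs across the genome. Mean density was 7.82 for drop-outs and 7.91 for kept CpGs of these stretches. Control depth, which the rule used, differed: drop-outs averaged 34.3 control reads and kept CpGs 96.9, and drop-outs were the shallower in 3136 of 3242 stretches.

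The longest run had 25 drop-outs within 680 bp on chromosome 17, from 28405086 to 28405765 (mm9, positions as deposited). Control was at a pooled 97.2% on 1202 reads, the 0-division library at 97.0% on 909 reads and the 1-division library at 97.7% on 1227 reads. All 14 reads of the >3-division library were methylated (Wilson interval 78.5% to 100%). In the >3-division library 19 of the 25 had no read. Its 27 listed CpGs, 2 of them below the minimum depth in the 0-division library, followed each other at gaps of 10 bp (13 times) and 39 bp (12 times) in turn, with 1 last gap of 81 bp, so that CpG pairs recurred every 49 bp. Where sequence repeats, reads may be placed at more than 1 unit, and this was not tested here. Within 2000 bp on either side 1 other CpG was listed, in the >3-division library alone, so no kept CpG stood beside the run.

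**Figure D5:**
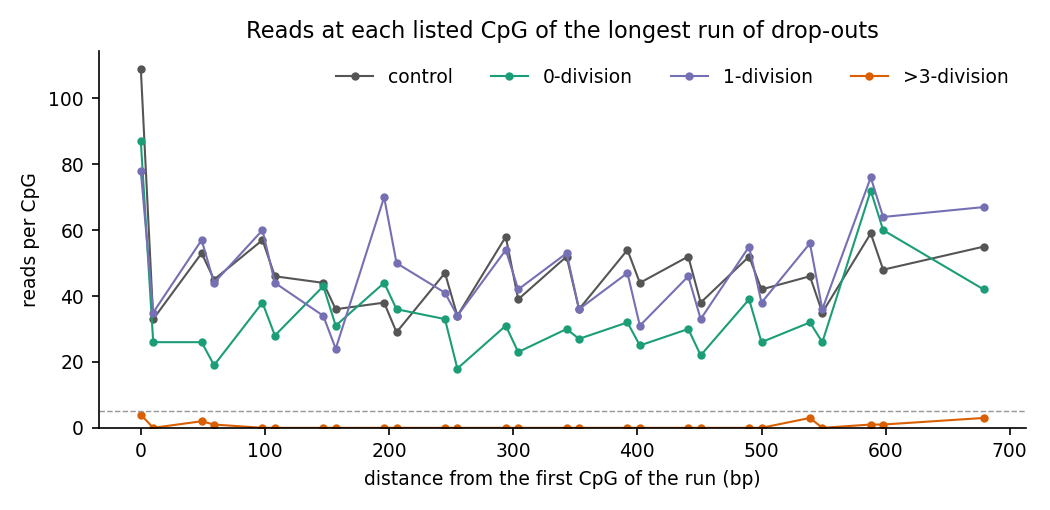
Reads per CpG (vertical axis) at the 27 listed CpGs of the longest run, by distance from its first CpG in bp (horizontal axis), in the 4 libraries; the dashed line marks 5 reads. Depth lies between 18 and 109 reads in the control, 0-division and 1-division libraries and between 0 and 4 in the >3-division library.

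The next run had 11 drop-outs on chromosome 8 from 46095293 to 46095457 and stood at 96.2% in the >3-division library on 26 reads (81.1% to 99.3%), against 97.1% in control on 795 reads. Runs of 9 lay on chromosome 13 from 103537340 to 103537454, on chromosome 19 from 24205658 to 24205745 and on chromosome 11 from 87430404 to 87430511. The >3-division library stood at 92.3% on 13 reads in the first of these, where control was at 92.3%. In the run on chromosome 19 it stood at 58.8% on 17 reads (36.0% to 78.4%), against 96.6% in control. On chromosome 11 it stood at 47.4% on 19 reads (27.3% to 68.3%), against 84.9% in control. Single runs therefore differed in what was left, and with so few reads their intervals are wide.

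Runs of 8 followed on chromosome 4 from 145167163 to 145167222, chromosome 3 from 54921329 to 54921479, chromosome 4 from 137494610 to 137494752 and chromosome 6 from 88179345 to 88179461. In the >3-division library 12 of 17, 14 of 14, 6 of 6 and 13 of 21 of their reads were methylated, and in control 473 of 579, 334 of 345, 320 of 337 and 220 of 262. Of 17 runs of 7 drop-outs, the one with the most reads in the first 3 libraries, on chromosome 12 from 55723634 to 55723723, had no read and so no level in the >3-division library. Control was at 85.7% of 265 reads there, the 0-division library at 93.8% of 487 and the 1-division library at 91.9% of 765. All 10 runs were above 80% in control, the 0-division and the 1-division library.

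A few drop-outs had been read deeply. Ranked by their lowest depth over the first 3 libraries, the top 3 were close neighbours on chromosome 1 at 191725966, 191725973 and 191725999. At 191725973 control had 238 reads at 95.4%, the 0-division library 432 at 92.6% and the 1-division library 300 at 97.7%, and of 4 reads in the >3-division library 2 were methylated. A CpG on chromosome 6 at 119474495 had 192, 269 and 245 reads in the same order and 4 in the >3-division library, all methylated. One on chromosome 1 at 121224731 had 160, 230 and 202 reads and then 3, also all methylated. All 5 were over 80% in each of the first 3 libraries.

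The 163 drop-outs under 20% in control were few. The 0-division library also had 145 of them under 20%, the 1-division library 129, and of their 510 reads in the >3-division library 27 were methylated. They had a median density of 9 and a median lowest depth of 25 reads, against 28 reads over all drop-outs. Only 13 runs of 3 or more drop-outs had a pooled control level under 20%. The 5 with the most reads in the first 3 libraries are given here. The deepest was on chromosome 11 from 96805602 to 96805630, with 10 reads in the >3-division library, none methylated, and 1.79% of 223 reads in control. A run of 7 on chromosome 2 from 60719370 to 60719385 had no methylated read in any library, with 27 reads in the >3-division library and 216 in control. The next 3 by summed reads lay on chromosome 13 from 58317034 to 58317051, chromosome 19 from 7315534 to 7315549 and chromosome 14 from 65977471 to 65977491, each with 4 drop-outs. In the >3-division library 0 of 15, 0 of 16 and 0 of 12 of their reads were methylated, against 0 of 205, 1 of 166 and 1 of 129 in control.

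Whether the first 3 libraries already differed in level at these CpGs was tested by Fisher's exact test per CpG over all 935673 eligible CpGs, calling a CpG where the Benjamini-Hochberg adjusted p was under 0.05 and the levels lay 20 points or more apart. Such a test compares 2 libraries, not 2 conditions. Between the 0-division library and control 1 drop-out was called higher and 2 lower, or 0.00489% and 0.00978% of 20451, against 0.00481% and 0.0078% of all eligible CpGs. Between the 1-division library and control 2 were called higher and 0 lower, against 0.00289% and 0.00171% of eligible CpGs. Between the 1-division and 0-division libraries 2 were called higher and 0 lower, against 0.0149% and 0.00716%. At an unadjusted p under 0.05, Fisher's exact test counted 801, 964 and 1135 drop-outs in these comparisons, 3.92%, 4.71% and 5.55% of them, against 3.91%, 3.59% and 4.37% of kept CpGs. Among CpGs at or over 80% in control the order was turned round, with 3.30%, 3.19% and 4.94% of drop-outs and 4.94%, 4.83% and 5.64% of kept CpGs. Kept CpGs were read more deeply, which raises such shares, and comparisons with control reuse the control level that set this bin. At 20 to 40 reads, over all levels, drop-outs had the higher shares again. These were 3.35%, 3.45% and 3.68%, against 2.27%, 1.86% and 2.40% of kept CpGs. Levels were not matched there, with control means of 85.4% for drop-outs and 31.8% for kept CpGs. So these shares do not set drop-outs apart. Counts of 0 to 2 calls are too small to set drop-outs apart from the background. The mean differences over all levels were -0.418, 0.953 and 1.37 points at drop-outs, and 0.230, 0.0377 and -0.192 points at kept CpGs. At or over 80% in control they were -1.59, -0.417 and 1.17 points at drop-outs, and -1.20, -0.838 and 0.366 points at kept CpGs. With 1 library per group there is no replicate spread to set them against.

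The called drop-outs were 7, named here after their values were seen. On chromosome 2 at 26224697 the 0-division library was at 36.4% of 33 reads and control at 89.4% of 47 reads (Fisher's exact test, adjusted p = 0.00955). The 1-division library was at 86.2% there. At chromosome 7, 83473052, 51 of 102 reads were methylated in the 0-division library and 85 of 102 in control (Fisher's exact test, adjusted p = 0.00509). At chromosome 6, 92515895, the 0-division library was at 84.6% and control at 36.0% (Fisher's exact test, adjusted p = 0.0218). Neighbouring CpGs on chromosome 4 at 118170317 and 118170320 were at 96.8% and 98.4% in the 1-division library and 62.7% and 66.7% in control (Fisher's exact test, adjusted p = 0.0409 and 0.0354). At chromosome 2, 8411942, the 1-division library was at 93.5% and the 0-division library at 52.6%, and at chromosome 11, 34222736, 35 of 47 and 3 of 25 reads were methylated (Fisher's exact test, adjusted p = 0.000713 and 0.00302). These are 6 places, since the pair on chromosome 4 lies 3 bp apart.

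Kept CpGs near a drop-out show what the >3-division library read in the same neighbourhood. Of 11514 kept CpGs within 100 bp of a drop-out, 464 were called lower and 8 higher in the >3-division library than in control, or 4.03% and 0.0695% (Fisher's exact test over 809201 kept CpGs, the same call rule). Over all kept CpGs 3.22% were called lower and 0.104% higher. The neighbours averaged 82.7% in the >3-division library and 86.7% in control, and kept CpGs farther off 35.3% and 38.4%. Of neighbours at or over 80% in the 1-division library 3.35% were called lower, against 8488 of 242744 kept CpGs of that level farther off, and the mean differences from control were -3.50 and -4.66 points. Between 20% and 80% there, 9.08% of 1487 neighbours and 16710 of 138783 kept CpGs farther off were called lower, with mean differences of -7.53 and -8.60 points. In both of these bins the neighbours thus had the smaller mean difference from control, the reverse of the order over all levels. CpGs under 20% in the 1-division library were not compared in this way. At or over 80% the shares called lower were close, at 3.35% and 3.50%. Between 20% and 80% levels were not matched, with control means of 69.2% for neighbours and 58.6% farther off. The share called lower differed between classes of distance. It was 13.9% of 675 kept CpGs at 2 to 20 bp, 6.75% of 2815 at 21 to 50 bp and 2.24% of 8024 at 51 to 100 bp. Farther off it was 5.56% of 8197 at 101 to 200 bp and 4.31% of 16061 at 201 to 1000 bp. The mean difference from control was -8.85, -4.96, -3.21, -4.73 and -3.90 points in these classes, so it had no steady course with distance. The classes were not matched in level or depth. Their mean control levels were 82.8%, 84.3%, 87.9%, 84.7% and 76.2%, and their median control depths 103, 72, 81, 85 and 81 reads. Over all levels, neighbours had a median of 45 reads in the >3-division library and 80 in control. Kept CpGs farther off had 77 and 70. At or over 80% in the 1-division library the medians were 44.5 and 81 for neighbours and 47 and 74 farther off. Lower depth in the >3-division library was thus shared by highly methylated kept CpGs farther off.

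Drop-outs were spread over all autosomes. The share of eligible CpGs lost ran from 1.92% on chromosome 12 (797 of 41554, Wilson interval 1.79% to 2.05%) to 2.40% on chromosome 5 (1593 of 66483, 2.28% to 2.52%), with 2.19% over all autosomes. Drop-outs were higher in control level than kept CpGs on 19 of 19 autosomes, by 41.9 to 56.5 points, and lower in mean density on 19 of 19. Among CpGs at or over 80% in control the share ran from 4.03% on chromosome 1 to 6.15% on chromosome 19, with 4.83% over all autosomes, and chromosome 12 was no longer the lowest, at 4.27%. The X chromosome, which the rule leaves out, had 1321 of 38016 CpGs under 5 reads, or 3.47%. Its eligible CpGs were more methylated, 59.3% of them at or over 80% against 28.3% to 43.5% on autosomes, and at that level 4.41% dropped out, within the range of the autosomes.

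Drop-outs were also spread over 1 Mb windows. Of 2346 windows of 1 Mb with at least 100 eligible CpGs, 165 had none, the median share was 1.97% and the 95th percentile 5.66%. The highest shares were 13.0% at 67 to 68 Mb on chromosome 12 (17 of 131 CpGs), 12.9% at 103 to 104 Mb on chromosome 13 (27 of 209), 12.3% at 29 to 30 Mb on chromosome 18 (14 of 114), 19 of 172 CpGs at 49 to 50 Mb on chromosome 19 and 10.5% at 60 to 61 Mb on chromosome 4 (22 of 210). In these windows the drop-outs came from 4, 7, 4, 6 and 12 stretches of 56, 86, 51, 57 and 81. Between 74.3% and 81.4% of their eligible CpGs were at or over 80% in control, above the 28.3% to 43.5% of whole autosomes.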

How the data were processed

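RRBS libraries were size-selected at 40 to 220 bp, per the labels' protocols. The authors deposited, for each of the 4 libraries, a table without header that gives a CpG position and 2 whole-number read counts. The submitters' processing notes name mm9 as the build. Whether positions count from 0 or 1 is not stated, so they are printed as deposited. The sources used here name no aligner, methylation caller, conversion check or handling of duplicates. Which of the deposited counts is which was read from the values. Among control CpGs within 10 bp of each other, the sum of both counts lay within 5% in 72.3% of pairs and the first count alone in 45.1%, so the sum is the depth. The first count was 0 at 57.1% of CpG-dense control sites and the second at 0.184%, so the first is the methylated reads, as CpG-dense sequence is mostly unmethylated.

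The level of a CpG was methylated reads over all reads in percent. CpGs were grouped by read depth alone. Two-sided Fisher's exact tests per CpG were adjusted by Benjamini-Hochberg over all autosomal CpGs that met the depth minimum, and the code was tested on simulated data. The files hold no molecular identifiers and neighbouring CpGs share reads, so the Fisher p-values come out too small, and 95% Wilson intervals hold for counting error alone. Named were the 10 runs with most drop-outs (ties by summed reads of the first 3 libraries), the 5 drop-outs of highest lowest depth, the 5 deepest runs of at least 3 drop-outs under 20% in control and the 5 windows of highest share. The members, thresholds and tests were chosen with earlier results of these data known. The spacing class of 149 to 151 bp, the spans of isolated groups, the comparison within stretches, the classes by distance from a drop-out and the splits by depth at or over 80% were chosen after values were seen, and other bins and group sizes were looked at before the reported ones were settled on. Python 3.11.15, numpy 2.4.6, pandas 2.3.3, scipy 1.17.1 and numba 0.67.0 were used.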

Additional observations from a re-analysis of the deposited data

How the results depend on the processing

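With 1 library per group no value has a replicate check. No paired analysis was possible because each group has 1 library. The number of drop-outs, 20451, was 1500 when no read at all was allowed in the >3-division library, 55793 under 10 reads, 48671 with a minimum of 10 reads in the first 3 libraries and 4345 with 40 reads. It was 27271 with reads scaled to the control total. The mean control level of drop-outs stood above that of kept CpGs by 51.6, 46.0, 45.1 and 49.8 points under the first 4 of these settings, by 47.1 points with chromosome X, by 53.7 points at 20 to 40 reads in each of the first 3 libraries and by 52.0 points at a lowest depth of 20 to 29 reads. Against kept CpGs of the same stretch it was -1.82 points. The median density of drop-outs was 4 with 40 reads, 3 with a window of 50 bp and 7 with 200 bp, below the kept CpGs' 9, 6 and 16. The median distance to the nearest listed CpG was 10 bp with no read allowed, 14 bp under 10 reads, 12 bp with a minimum of 10 reads, and 12 bp among CpGs at or over 80% in control. The pooled difference of the >3-division library from control was -17.3 points when each CpG counted equally and -14.7 points at CpGs with 5 to 19 reads. With a minimum of 40 reads 1 drop-out was called between the 0-division library and control and 0 between the 1-division and 0-division libraries. The share of kept neighbours called lower was 8.14% within 50 bp and 2.30% at a minimum difference of 30 points, against 3.22% and 1.98% of all kept CpGs. Runs numbered 11681 and 11040 with joining gaps of 50 and 200 bp, against 11350. The causes of these shifts were not tested. The comparisons within stretches, at a lowest depth of 20 to 29 reads and among CpGs at or over 80% were added after the data were seen.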
